A study of Mus musculus with 56 samples.

Results

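The 8 libraries described here were those of sorted thymic epithelial cells (TECs) labelled D16, D20, D24 and D28, that is days after delivery, 4 of cortical TECs (cTECs) and 4 of medullary TECs (mTECs), out of 56 in the series. They were picked by these labels, with earlier results of these data known. With 1 library per cell type at each time point, cTECs were set against mTECs within time points. All were from female mice of the B6.SJL strain (CD45.1) that had been mated with BALB/cJ males and whose pups were taken away at birth, and no drug or genetic change was given in the labels. Thymi were digested with papain, DNase and collagenase IV, TECs were enriched on anti-EpCAM beads and sorted as EpCAM+CD45- cells, with cTECs negative and mTECs positive for UEA1, a lectin that binds fucose, and polyA RNA was sequenced with strand kept. Each library was from 1 mouse, so that time point and mouse cannot be told apart within a cell type, and whether the cTECs and mTECs of a time point came from the same mouse is not given. The study calls D16 to D28 late regeneration, and for 1 comparison this phase was set beside non-pregnant age-matched females (NPC, 3 cTEC and 3 mTEC libraries) and early regeneration (D0 to D12, 18 cTEC and 18 mTEC libraries).

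TECs build the thymus in which T cells form. cTECs draw in progenitors with chemokines, start T-cell commitment with Notch ligands and present peptides made by their own proteasome and proteases for positive selection. mTECs attract the selected thymocytes, express genes of many other tissues under Aire and Fezf2 and remove self-reactive cells, and some of them take on programs of skin, gut, tuft, neuroendocrine or muscle cells. FOXN1 is the transcription factor that both lineages need, while mTECs also depend on RANK, CD40 and lymphotoxin receptors, which act through the NF-kappaB proteins NFKB2 and RELB.

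Total estimated counts ran from 8867222 (cTEC D16) to 46220373 (mTEC D16), and 18993 genes with a mean of at least 0.5 FPKM (fragments per kilobase of transcript and 1000000 mapped fragments) in either cell type were tested. The D20 cTEC library stood apart: 32.2% of the tested genes were listed at 0 in it, against 9.5% to 10.5% in the other cTEC libraries and 3.3% to 17.1% in the mTEC libraries, although its total was 38236130. A 0 in this library can therefore go with a readily detected level in the other 3, and each main count is also given without the D20 pair. Across all genes, Pearson correlations of log2 levels were 0.827 to 0.96 between cTEC libraries, 0.793 to 0.902 between mTEC libraries and 0.725 to 0.882 between the cell types.

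The markers fixed for each side stood on the side of their label. Epcam, the antigen used for enrichment, was at 148, 76.8, 124 and 173 FPKM in cTECs of D16, D20, D24 and D28, and at 268, 198, 189 and 125 FPKM in mTECs. This order of time points is kept for all series of 4 values below. Ptprc, which encodes the CD45 that the sort selects against, was at 9.69, 1.28, 3.10 and 2.62 FPKM in cTECs and 2.10, 0.1, 0.6 and 0.69 FPKM in mTECs, and was higher in the cTEC library of every pair without passing the test (adjusted p = 0.0462). Summed FPKM of the 11 thymocyte markers was 45.8 to 179 in cTECs and 25.4 to 43.0 in mTECs, without overlap and highest in cTEC D16; of the 10 tested, 1 passed the test. This was Rag1, of the enzyme that cuts antigen receptor genes, at 16.4, 3.27, 3.94 and 3.85 FPKM in cTECs and 1.29, 1.42, 0.7 and 0.4 in mTECs. Without the D20 pair 3 passed, all higher in cTECs: Rag1, the T-cell coreceptor gene Cd8a (adjusted p = 0.0316, 0.00481 without D20) and Dntt, which adds bases at receptor gene joints (0.011, 0.00739 without D20). Markers of macrophages, dendritic and B cells went the other way, with sums of 5.16 to 43.4 FPKM in cTECs and 85.4 to 222 in mTECs, and all 11 tested of 13 had negative log2 differences. Lyz2 made up most of that sum, at 29.3, 4.72, 18.7 and 37.4 against 176, 65.5, 55.9 and 50.4 FPKM, and Adgre1, which encodes the macrophage antigen F4/80, was the only 1 of these 11 that passed, at no more than 0.07 FPKM in any cTEC library and 3.78, 2.80, 1.71 and 2.23 FPKM in mTECs (adjusted p = 0.00413), and without the D20 pair none of them passed (0.0261 for Adgre1). Of the 8 fibroblast markers Dcn alone passed and is described below; Pdgfra was at no more than 1.06 FPKM in cTECs and 2.04 in mTECs. Endothelial sums were at most 3.06 FPKM in cTECs and 6.73 in mTECs, and red cell sums were 0.35 to 4.25 and 24.1 to 42.1 FPKM. The part of these other cells in the differences below was not tested, and in such bulk samples fewer cells of a type and less RNA per cell cannot be told apart. The sort parted cTECs from mTECs by UEA1 alone. The part of mTECs sorted among cTECs, or of cTECs among mTECs, was not tested either.

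The 250 bases upstream of the RefSeq start (GRCm38.p6) are shown for 4 genes, 2 higher in cTECs and 2 higher in mTECs. The motif GACGC, the core that FOXN1 binds, is in capitals in the first pair, and an NF-kappaB motif (GGG and TTTCC with any 2 bases between) in the second, on either strand (GCGTC is GACGC read on the other strand). Psmb11, a proteasome subunit made by cTECs, is shown at chr14:54625060-54625309 on the + strand, ending just before a RefSeq start that lies 3877 bases from the GENCODE gene start, and Ccl25, a chemokine for thymus-settling progenitors, at chr8:4324960-4325209 on the + strand. Madcam1, a vascular addressin, is shown at chr10:79664309-79664558 (+ strand) and Nfkb2, of the noncanonical NF-kappaB pathway, at chr19:46304487-46304736 (+ strand).
Psmb11: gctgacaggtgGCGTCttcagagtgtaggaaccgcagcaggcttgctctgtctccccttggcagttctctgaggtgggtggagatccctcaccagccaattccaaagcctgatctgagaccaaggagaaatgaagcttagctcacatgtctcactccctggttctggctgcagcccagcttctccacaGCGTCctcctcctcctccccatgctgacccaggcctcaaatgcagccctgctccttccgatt
Ccl25: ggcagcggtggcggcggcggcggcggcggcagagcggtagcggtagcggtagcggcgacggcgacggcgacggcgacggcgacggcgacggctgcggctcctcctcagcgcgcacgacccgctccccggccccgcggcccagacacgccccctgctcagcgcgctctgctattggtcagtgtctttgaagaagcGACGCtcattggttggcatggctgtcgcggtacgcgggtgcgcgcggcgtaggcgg
Madcam1: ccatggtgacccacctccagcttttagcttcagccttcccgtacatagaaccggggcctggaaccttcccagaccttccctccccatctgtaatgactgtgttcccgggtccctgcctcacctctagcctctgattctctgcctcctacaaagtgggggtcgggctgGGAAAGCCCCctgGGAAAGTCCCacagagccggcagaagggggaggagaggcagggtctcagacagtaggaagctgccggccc
Nfkb2: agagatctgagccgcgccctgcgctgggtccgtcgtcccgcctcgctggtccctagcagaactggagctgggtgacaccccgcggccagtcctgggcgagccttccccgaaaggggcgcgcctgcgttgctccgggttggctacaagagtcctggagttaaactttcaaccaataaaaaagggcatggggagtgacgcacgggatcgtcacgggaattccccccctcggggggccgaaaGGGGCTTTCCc
The Psmb11 window held 2 copies of GACGC, beginning 239 and 62 bases before the start, and that of Ccl25 held 1, at 56 bases. The Madcam1 window held 2 copies of the NF-kappaB motif, at 83 and 70 bases, and that of Nfkb2 held 1, at 11 bases; a GACGC at 57 bases in Nfkb2 is left in lower case. GACGC was in 34.5% of the 12988 tested genes with a window, in 35.7% of the 244 such genes called higher in cTECs (87 genes) and in 20.9% of the 297 called higher in mTECs (62 genes), so that its share among the cTEC genes was near that of all tested genes. It was in 4 of 8 cTEC markers and 7 of 10 mTEC regulators with a window. The NF-kappaB motif was in 1.6% of the tested genes, in 0.8% of those higher in cTECs (2 genes) and in 5.1% of those higher in mTECs (15 genes). It was in 0 of 8 cTEC markers and in 1 of 10 mTEC regulators with a window, and that 1 was Nfkb2. Over all 19965 windows of the annotation the shares were 26.3% and 1.3%. These are counts of letters, with no test, and say nothing of whether a factor was bound. The 4 windows shown each hold the motif marked in them, so that they are examples and not a sample of the called genes.

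Between cTECs and mTECs, 726 of the 18993 tested genes (3.82%) differed at least 2-fold with an adjusted p of at most 0.01 by limma-voom with time point as a term (called, below). Of these, 322 (1.70%) were higher in cTECs and 404 (2.13%) higher in mTECs. All 4 pairs went in the called direction for 308 of the 322 and 393 of the 404, and the 4 cTEC and 4 mTEC values did not overlap for 642 of the 726, where 16.5% of all tested genes did not overlap (5.91% higher in cTECs and 10.6% higher in mTECs). The median log2 difference (cTEC minus mTEC) over all tested genes was -0.05. Without the D20 pair 712 genes were called (3.75%), 310 higher in cTECs and 402 in mTECs, and 531 of them were among the 726. The number rested most on the D24 pair, without which 148 genes were called, and it was 405 without D16 and 471 without D28. None of the 726 changed sign in any of these fits.

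The median size of the difference was 1.60 (log2) for the genes called higher in cTECs and 2.12 for those called higher in mTECs. Only 3 of the 322 had a mean under 0.5 FPKM in mTECs, whereas 77 of the 404 had one under 0.5 FPKM in cTECs, and 27 of the 404 had no count in any cTEC library against 0 of the 322 with none in any mTEC library. Among all tested genes 3172 reached 0.5 FPKM only in mTECs and 932 only in cTECs. The D20 cTEC library with its many zeros enters the cTEC side of these counts, and its part was not tested.

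**Figure D1:**
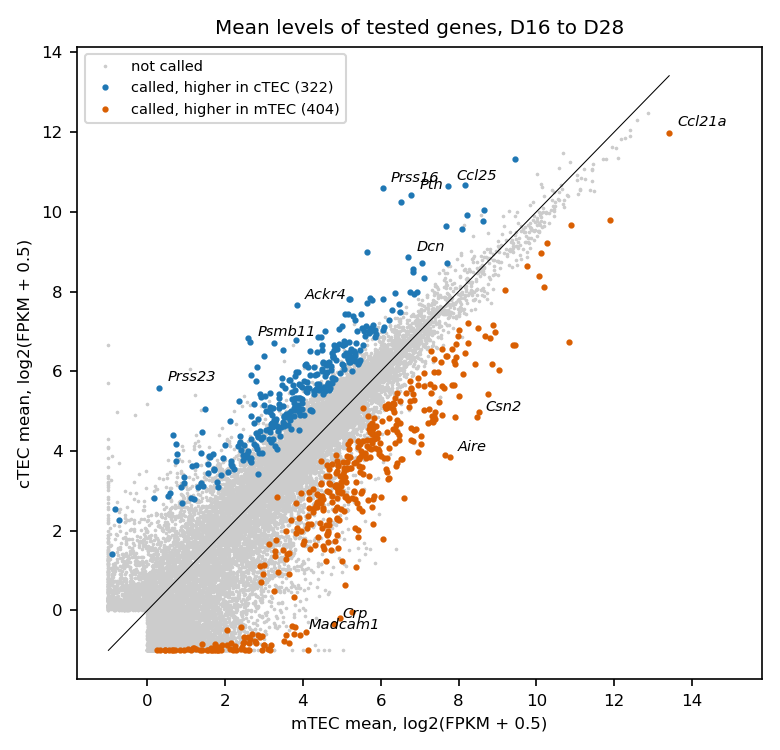
Mean level of each tested gene over the 4 mTEC libraries (horizontal) and the 4 cTEC libraries (vertical) of D16 to D28, as log2(FPKM + 0.5); each point is a gene, blue for the 322 called higher in cTECs, orange for the 404 called higher in mTECs and grey for the rest, and the line marks equal levels. Many orange points lie along the lower edge, where the cTEC mean is at or near 0, and few blue points lie along the left edge.

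All 10 cTEC markers listed were called higher in cTECs, with and without the D20 pair, with a median log2 difference of 3.02. The list was chosen with earlier results of these data known, so this count is not an independent check. Psmb11 (ENSMUSG00000072423, chr14:54621433-54629556), the beta5t subunit of the thymoproteasome, was at 148, 129.9, 96.98 and 48.98 FPKM in cTECs and 4.92, 8.24, 5.06 and 4.51 FPKM in mTECs. It lay higher in every cTEC library than in any mTEC library, though the D28 value was the lowest of the 4, and the log2 difference was 4.24 ± 0.27 (SE, adjusted p = 2.4e-06). Prss16 (chr13:22002173-22009742), a serine protease that cuts class II peptides, was at 3248, 1126, 877 and 954 FPKM against 92.1, 50.9, 24.4 and 95.1 FPKM. Its D16 cTEC library was the highest by far, the groups were far apart at all time points and the difference was 4.53 ± 0.25 (adjusted p = 1.69e-06). Ly75, the endocytic receptor DEC-205 (chr2:60292103-60383303), was at 222, 58.6, 52.7 and 105 FPKM against 19.6, 10.7, 13.5 and 10.8 FPKM, without overlap and with a difference of 2.95 ± 0.23 (adjusted p = 6.44e-06).

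The other cTEC markers covered recruitment, presentation and Notch signalling. Ccl25 was at 2709, 1699, 1118 and 843 FPKM in cTECs and 329, 179, 148 and 191 FPKM in mTECs (log2 2.86 ± 0.19, adjusted p = 3.43e-06), and Cxcl12, which retains and expands early thymocytes, at 867, 323, 405 and 455 against 55.4, 40.2, 48.9 and 53.4 FPKM (3.37 ± 0.20, adjusted p = 2.4e-06). Both chemokines were higher in all cTEC libraries than in any mTEC library and highest at D16. Cd83, which holds class II molecules at the surface, was at 248, 106, 54.2 and 50.9 FPKM against 13.2, 2.28, 2.90 and 3.78 (4.34 ± 0.35, adjusted p = 8.58e-06), again with no overlap. Enpep, the aminopeptidase detected as Ly51, was 8.46-fold higher (3.08 ± 0.26) and Tbata, named for its expression in thymus, brain and testis, 5.08-fold (2.35 ± 0.18). Ctsl, the cathepsin that trims class II peptides in cTECs, was at 4733, 1679, 1508 and 2358 FPKM against 929, 616, 545 and 691, and Dll4, the Notch ligand for T-cell commitment, at 46.5, 15.3, 13.7 and 10.8 against 11.1, 4.65, 7.29 and 2.90. Dll4 was the only 1 of the 10 whose groups overlapped, since the cTEC D28 value was below the mTEC D16 value, but it was higher in cTECs in all 4 pairs (1.71 ± 0.28, adjusted p = 0.00188).

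**Figure D2:**
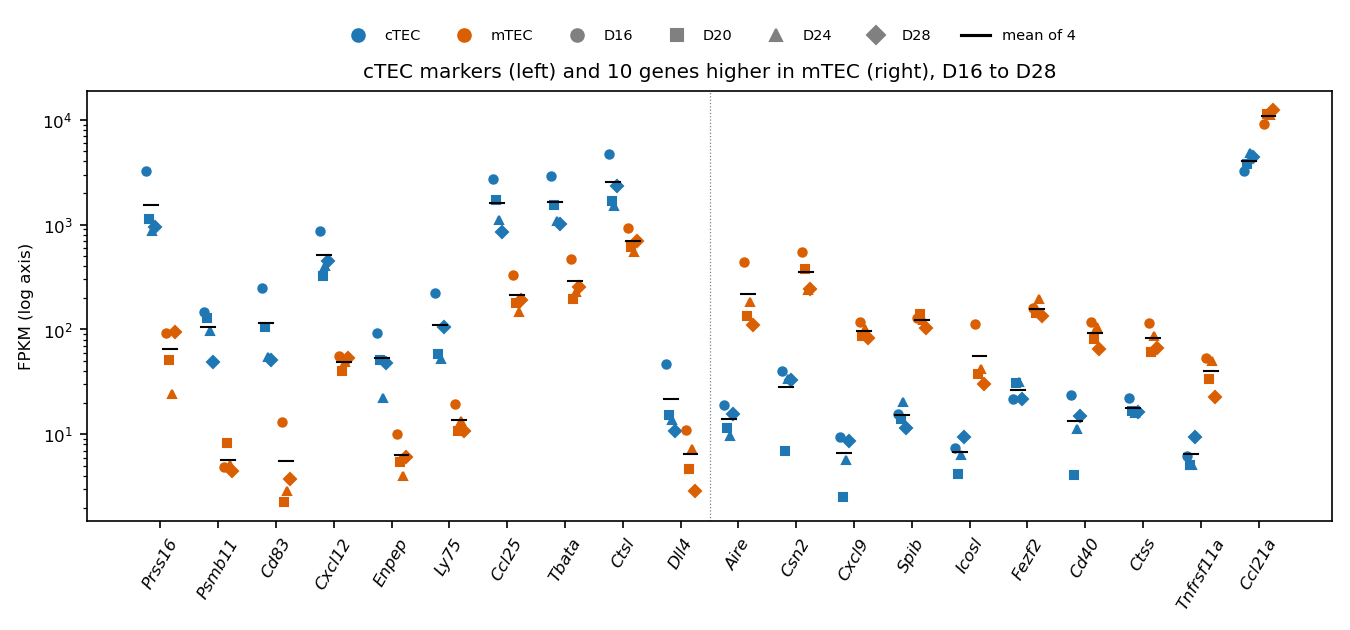
FPKM (log axis) of the 10 cTEC markers (left) and of 10 genes higher in mTECs (right) in each library; blue points are cTECs, orange points mTECs, the symbol gives the time point and the black line the mean of 4. Apart from Dll4, the blue and orange points of each gene shown do not overlap.

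Of the 10 listed transcription factors of the thymic epithelium, 3 were called higher in cTECs and none higher in mTECs (median 0.52), but 1 without the D20 pair. Foxn1 itself was at 79.9, 181, 108 and 41.8 FPKM in cTECs and 54.3, 71.4, 92.8 and 80.8 FPKM in mTECs. The ranges overlapped, with the highest value in cTEC D20 and the lowest in cTEC D28, and the log2 difference of 0.31 ± 0.28 did not pass (adjusted p = 0.545) and was -0.065 without the D20 pair. Pax1, needed for thymus formation, was at 289, 557, 378 and 205 FPKM in cTECs and 56.7, 111, 128 and 156 in mTECs, higher in every cTEC library (1.62 ± 0.27, adjusted p = 0.00225; 1.42, adjusted p = 0.023 without D20). Trp63, of epithelial stem cells, was 2.01-fold higher in cTECs and kept its call without D20 (adjusted p = 0.00479). It lay at the fold threshold, and its log2 difference fell under it without D16, D24 or D28 (0.95, 0.91 and 0.97). Meis1, a homeobox factor, was 2.16-fold higher (adjusted p = 0.00884; 0.0112 without D20), and Pax9 was at 49.2, 42.3, 39.8 and 60.5 against 36.8, 25.6, 21.9 and 24.7 FPKM, a difference of 0.84 ± 0.19 that did not reach the threshold (adjusted p = 0.0141).

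In the Notch list of 12, 3 ligands were called higher in cTECs and 1 receptor and 1 target higher in mTECs (median -0.24), with 3 and 2 called also without D20. Dll1 was at 54.1, 21.7, 20.8 and 63.2 FPKM in cTECs and 17.4, 12.8, 13.8 and 13.9 FPKM in mTECs, highest in cTEC D16 and D28, and Jag2 at 93.2, 116, 89.8 and 102 against 28.5, 34.5, 27.7 and 37.9 FPKM, level across time points in both cell types. Neither overlapped, and the differences were 1.69 ± 0.26 and 1.64 ± 0.17 (adjusted p = 0.00102 and 5.2e-05). The receptor gene Notch3 was at 3.23, 0.81, 4.82 and 2.88 FPKM in cTECs and 9.05, 10.2, 10.2 and 8.19 in mTECs, and the Notch target Heyl at 7.43, 6.34, 4.71 and 7.70 against 17.4, 25.04, 18.9 and 25.3, both lower in all cTEC libraries (-1.79 ± 0.38 and -2.09 ± 0.26, adjusted p = 0.00901 and 0.000263).

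Among 12 thymopoietic cytokines, Kitl was the only 1 called (median -0.44, -0.02 without D20). Kitl, the stem cell factor that acts on early thymocytes, was at 39.4, 47.7, 23.2 and 31.2 FPKM in cTECs and 7.60, 8.70, 9.48 and 4.21 FPKM in mTECs, without overlap (2.27 ± 0.29, adjusted p = 0.000301). Il7, the survival factor of early thymocytes, was at 82.03, 59.1, 73.1 and 74.9 FPKM against 69.7, 71.5, 57.9 and 77.3 FPKM, with interleaved values and a difference of 0.07 ± 0.19 (adjusted p = 0.848). Csf1, the macrophage growth factor, was higher in cTECs in all 4 pairs with a log2 difference of 1.00 ± 0.17 (adjusted p = 0.00222), but just short of a 2-fold difference.

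The lists for signals and matrix described next held 1 or 2 calls each, where 3.82% of all tested genes were called. Tgfbr2, the type 2 receptor of TGF-beta, was at 50.98, 59.2, 55.1 and 53.1 FPKM in cTECs and 9.09, 16.7, 9.39 and 13.9 FPKM in mTECs. This gene was steady across time points in cTECs and was the only 1 called of 15 in the BMP and TGF-beta list (2.33 ± 0.19, adjusted p = 8.58e-06; list median -0.08). Without D20 it kept its call, and Bmp2, a BMP ligand, was called higher in mTECs (-2.53, adjusted p = 0.00286; 0.0669 over the 4 pairs). Of 7 tested steroid hormone receptors 2 were called, both higher in cTECs (median 0.66, 0.30 without D20): Pgr, the progesterone receptor, at 8.03, 11.6, 5.74 and 15.1 against 2.51, 2.35, 2.34 and 5.55 FPKM (1.64 ± 0.33, adjusted p = 0.0066), and Nr3c1, the glucocorticoid receptor, at 40.4, 44.1, 42.3 and 42.8 against 19.3, 16.6, 25.1 and 28.2 FPKM (1.198 ± 0.24, adjusted p = 0.00577). Without D20 Pgr kept its call, whereas Nr3c1 was at 0.93 (adjusted p = 0.0213).

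In the matrix list 2 of 13 were called, both higher in cTECs (median 0.32): Col4a5, a basement membrane collagen, at 21.97, 6.03, 10.03 and 20.6 against 4.66, 2.48, 1.71 and 2.11 FPKM (2.72 ± 0.35), and Hspg2, perlecan, 2.15-fold higher (1.11 ± 0.19). Dcn, the proteoglycan decorin, was listed as a fibroblast marker and was at 253, 484, 492 and 621 FPKM in cTECs and 61.03, 99.4, 123 and 129.8 FPKM in mTECs, clearly apart (2.16 ± 0.15, adjusted p = 4.15e-06). The fibroblast sums of 304 to 699 FPKM in cTECs and 119 to 205 in mTECs were mostly Dcn. Of the 8 markers 4 had positive and 4 negative differences (median -0.01), and 3 did not overlap toward cTECs and 2 toward mTECs. Besides Dcn, the collagen gene Col1a2 was at 1.99, 5.40, 1.80 and 2.42 against 1.79, 1.06, 1.70 and 1.09 FPKM and Lum, the proteoglycan lumican, at 3.29, 3.31, 4.44 and 5.45 against 1.64, 2.75, 2.60 and 1.10 FPKM, both apart toward cTECs and not called (adjusted p = 0.301 and 0.388). Col1a1, the partner of Col1a2, was at 1.16, 0.9, 2.48 and 1.10 against 11.3, 7.89, 17.8 and 4.09 FPKM, apart toward mTECs and not called (adjusted p = 0.0137). Dsg2, a desmosomal cadherin, was the only 1 of 14 junction genes called and was higher in mTECs, at 52.3, 37.8, 64.5 and 50.05 against 133, 171, 149 and 165 FPKM (-1.74 ± 0.19, adjusted p = 7.01e-05).

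On the medullary side, 5 of 12 mTEC regulators were called higher in mTECs and none higher in cTECs (median -1.09), 5 also without D20. Aire (chr10:78030022-78043610), the regulator of tissue-restricted antigens, was at 18.9, 11.4, 9.55 and 15.7 FPKM in cTECs and 439, 135, 184 and 111 FPKM in mTECs. The lowest mTEC value was well above the highest cTEC value, the D16 mTEC library was the highest and the log2 difference was -3.85 ± 0.32 (adjusted p = 1.15e-05). Fezf2 (chr14:12342094-12348189), a second such regulator, was at 21.6, 30.8, 31.5 and 21.7 against 160.4, 143, 195 and 134 FPKM, close within each cell type (-2.55 ± 0.20, adjusted p = 6.44e-06). Tnfrsf11a, which encodes RANK, was at 6.16, 5.05, 5.14 and 9.38 against 53.8, 33.8, 49.6 and 22.8 FPKM and Cd40 at 23.7, 4.06, 11.2 and 14.8 against 118, 81.2, 105 and 65.8 FPKM. Both receptors were higher in all mTEC libraries (-2.11 ± 0.28 and -2.45 ± 0.35, adjusted p = 0.000372 and 0.000624). Nfkb2, whose upstream window is shown above, was 2.30-fold higher in mTECs (-1.204 ± 0.19, adjusted p = 0.00111), and Relb, its partner, lay just under the fold threshold at -0.98 ± 0.19 (adjusted p = 0.00565).

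Of 10 medullary chemokines 3 were called, all higher in mTECs (median -1.78), also without D20. Ccl21a (chr4:42772860-42773993), which draws thymocytes into the medulla, was the most abundant of these in both cell types, at 3261, 3794, 4782 and 4391 FPKM in cTECs and 9142, 11241, 10977 and 12293 FPKM in mTECs. The ranges were tight and apart (-1.43 ± 0.12, adjusted p = 1.43e-05), although Ccl21a has near-identical copies among which estimated counts divide shared reads. Cxcl9, an interferon-induced chemokine, was at 9.52, 2.55, 5.71 and 8.59 against 118, 86.3, 100.1 and 82.5 FPKM (-3.61 ± 0.38), and Ccl22, a ligand of CCR4, at 8.25, 4.72, 8.64 and 5.03 against 46.7, 33.2, 30.6 and 22.9 FPKM (-2.11 ± 0.37). Ccl19, a second CCR7 ligand, was at 35.05, 60.4, 57.3 and 51.8 against 194, 132, 123 and 112 FPKM, with no overlap, but an adjusted p of 0.0119.

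Costimulation gave 1 call among 9 tested genes (median -1.66) and 3 without D20, all higher in mTECs. Icosl, the ligand of ICOS, was at 7.33, 4.23, 6.38 and 9.38 FPKM in cTECs and 114, 37.99, 42.1 and 30.3 FPKM in mTECs (-2.69 ± 0.39, adjusted p = 0.000728). Cd80, a CD28 ligand, was at 6.07, 10.1, 6.15 and 6.05 against 46.5, 21.02, 23.3 and 21.7 FPKM, apart in all libraries, with an adjusted p of 0.0149 over the 4 pairs and 0.00481 without D20, and Pdcd1lg2, which encodes PD-L2, likewise went from 0.028 to 0.00655. Cd274, which encodes PD-L1, stood on the other side in all 4 pairs, at 200.2, 66.5, 47.4 and 218 against 85.6, 35.8, 44.5 and 36.6 FPKM, high in cTEC D16 and D28, and was not called (1.28 ± 0.29, adjusted p = 0.013).

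The proteases that cut class II peptides were split between the cell types, 2 of 10 called higher in cTECs (Prss16 and Ctsl) and 3 higher in mTECs (median -0.12), with or without D20. Ctss, cathepsin S, was at 22.00, 16.9, 15.99 and 16.4 FPKM in cTECs and 114, 61.6, 86.2 and 67.2 FPKM in mTECs, Ctsh at 25.1, 27.9, 29.7 and 33.9 against 212, 148, 173 and 104 and Ctsz at 22.9, 20.5, 58.5 and 25.6 against 144, 145, 141 and 119.9. All 3 were lower in every cTEC library, with differences of -2.14 ± 0.26, -2.30 ± 0.31 and -2.12 ± 0.27 (adjusted p = 0.000198, 0.000439 and 0.000319). The class II molecules themselves were less apart (median -0.43). Of the 10 genes of the list, 6 did not overlap toward mTECs and 1 toward cTECs, against 10.6% and 5.91% of all tested genes. Only 1 of the 10 was called, higher in mTECs. This was H2-Oa, of the DO molecule that restrains peptide exchange, at 88.1, 69.2, 89.7 and 66.5 against 192, 151, 165 and 155 FPKM (-1.08 ± 0.19, adjusted p = 0.00283), while the class II chain H2-Aa was at 2454, 2831, 2881 and 2077 against 3508, 3882, 3272 and 3582 FPKM and was not called (-0.46 ± 0.14, adjusted p = 0.0491).

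Of 10 proteasome subunits Psmb11 was called higher in cTECs and Psme1, an activator cap subunit, higher in mTECs (-1.02 ± 0.19, adjusted p = 0.00477; 0.0227 without D20), with a list median of -0.16 (-0.38 without D20). The immunoproteasome subunit gene Psmb9 was at 282, 243, 213 and 162 against 117, 77.3, 151 and 147 FPKM, higher in all cTEC libraries, but not called (0.85 ± 0.21, adjusted p = 0.02). None of 12 genes for MHC class I and peptide loading was called by limma-voom (median 0.03), with log2 differences from -0.63 to 0.59. B2m, the class I light chain, was at 3539, 3868, 4525 and 3315 against 5393, 5590.3, 5069.9 and 5647 FPKM (-0.51 ± 0.14, adjusted p = 0.0319), and Calr, a chaperone of loading, was lower in all cTEC libraries and not called (-0.63 ± 0.14, adjusted p = 0.012).

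Keratins marked both sides, with 1 of 8 called higher in cTECs and 2 higher in mTECs (median -0.19). Krt19, a simple keratin, was at 63.7, 242, 152 and 106 FPKM in cTECs and 36.8, 55.6, 42.4 and 59.5 FPKM in mTECs (1.49 ± 0.26, adjusted p = 0.00289; 0.0213 without D20). The basal keratins Krt14 and Krt17 were higher in mTECs, Krt14 at 297, 731, 555 and 417 against 726, 1306, 1049 and 1338 FPKM and Krt17 at 631, 1068, 1008 and 549 against 1412, 2223, 1958 and 2045 FPKM (-1.29 ± 0.17 and -1.27 ± 0.17). Krt5, the partner of Krt14, was lower in cTECs in all 4 pairs but under the fold threshold (-0.98 ± 0.17, adjusted p = 0.00287), and Krt8, a simple keratin, was at 1725, 2017, 1661 and 888 against 921, 1345, 1117 and 1178 FPKM and was not called (0.41 ± 0.19).

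In the lists for programs of other tissues, calls were toward mTECs except for 1 gene. In the cornified epithelium list 3 of 14 were higher in mTECs (median -1.91), and 2 without D20. Krtdap, of differentiating keratinocytes, was at 8.73, 57.9, 32.98 and 31.2 FPKM in cTECs and 133, 165, 182 and 127 FPKM in mTECs, and Krt10 at 14.5, 9.65, 6.21 and 13.1 against 39.5, 27.4, 26.5 and 21.3 (-2.56 ± 0.48 and -1.77 ± 0.31). Lor, loricrin, had 1 count over the cTEC libraries and 620 over the mTEC libraries, a ratio of 531 after scaling to the library totals, with a 95% counting interval of 94.9 to 20995 (adjusted p = 0.00625, 0.0395 without D20). For enterocyte and microfold genes the count was 3 of 15 (median -1.45). Spib, the Ets factor of microfold cells, was at 15.5, 14.00, 20.2 and 11.5 against 128, 139.6, 124 and 104 FPKM, apart by a wide margin at all time points (-2.90 ± 0.22, adjusted p = 6.44e-06), and Tnfaip2 and the apolipoprotein Apoa4 followed at -1.37 ± 0.28 and -2.62 ± 0.47. Without D20 the count was also 3, but Tnfaip2 was not among them (-0.99, adjusted p = 0.016) and Apoa1, a second apolipoprotein gene, was (-3.97, adjusted p = 0.00768; 0.0258 over the 4 pairs).

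In the list of ciliated, neuroendocrine, muscle and ionocyte genes 2 of 12 were called higher in mTECs and 1 higher in cTECs (median -1.36). Insm1, a neuroendocrine transcription factor, was at 2.24, 0.36, 4.61 and 2.32 FPKM in cTECs and 31.5, 20.8, 30.7 and 21.2 FPKM in mTECs (-3.31 ± 0.57, adjusted p = 0.00257), and Ckm, muscle creatine kinase, was at 0 FPKM in 3 cTEC libraries and at 5.56, 7.81, 1.98 and 4.95 FPKM in mTECs (adjusted p = 0.00761, 0.0392 without D20). The gene of this list called toward cTECs was Chga, the secretory granule protein chromogranin A, at 1149.9, 446, 3045 and 199.97 FPKM in cTECs and 93.1, 47.2, 124 and 102 FPKM in mTECs, highest in cTEC D24 and D16 (3.28 ± 0.41, adjusted p = 0.000218). Pth, the parathyroid hormone gene, chosen after its values were seen, varied alike, at 2292, 222, 2652 and 309 FPKM in cTECs and 159.6, 65.2, 133 and 79.5 FPKM in mTECs (3.33 ± 0.35, adjusted p = 6.43e-05). Of 2 further parathyroid genes named for the same reason, Gcm2, the parathyroid transcription factor, was at 6.13, 0, 6.96 and 1.03 against 0.61, 0.03, 0.11 and 0.2 FPKM and Casr, the calcium-sensing receptor, at 12.4, 4.86, 24.3 and 3.21 against 7.28, 13.9, 4.05 and 8.38 FPKM, and neither was called (adjusted p = 0.191 and 0.481).

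None of 15 tuft cell genes was called by limma-voom in either direction (median 0.41). Trpm5, the tuft cell cation channel, was at 15.2, 24.99, 28.3 and 15.4 FPKM in cTECs and 13.3, 13.7, 12.5 and 7.43 FPKM in mTECs, and Pou2f3, the tuft cell master regulator, at 7.87, 22.7, 11.3 and 5.79 against 13.2, 12.3, 6.62 and 5.64 FPKM (0.57 ± 0.26 and 0.41 ± 0.33, adjusted p = 0.191 and 0.485). Of the 15, 10 had positive and 5 negative log2 differences, and the highest Trpm5 value of mTECs was below the lowest of cTECs.

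Of 11 tested tissue-restricted antigens 3 were called, all higher in mTECs, with a list median of -4.32. Without the D20 pair 2 were called and the median was -3.08. Csn2, beta-casein, was at 40.4, 6.88, 33.5 and 33.3 FPKM in cTECs and 551, 376, 239.9 and 245 FPKM in mTECs, lowest in cTEC D20 (-3.55 ± 0.42, adjusted p = 0.000163). Crp, C-reactive protein of the liver, was at 0.63, 0, 0.4 and 0.12 against 17.5, 37.6, 21.3 and 33.6 FPKM (-7.54 ± 1.39, adjusted p = 0.00392), and Alb, albumin, had no count in any cTEC library and 6.29, 0.61, 1.26 and 3.99 FPKM in mTECs, at least 244-fold higher with a floor of 3 counts over the 4 cTEC libraries (adjusted p = 0.00302, 0.0179 without D20). Summed over the list the levels were 6.88 to 46.4 FPKM in cTECs and 281 to 651 in mTECs.

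**Figure D3:**
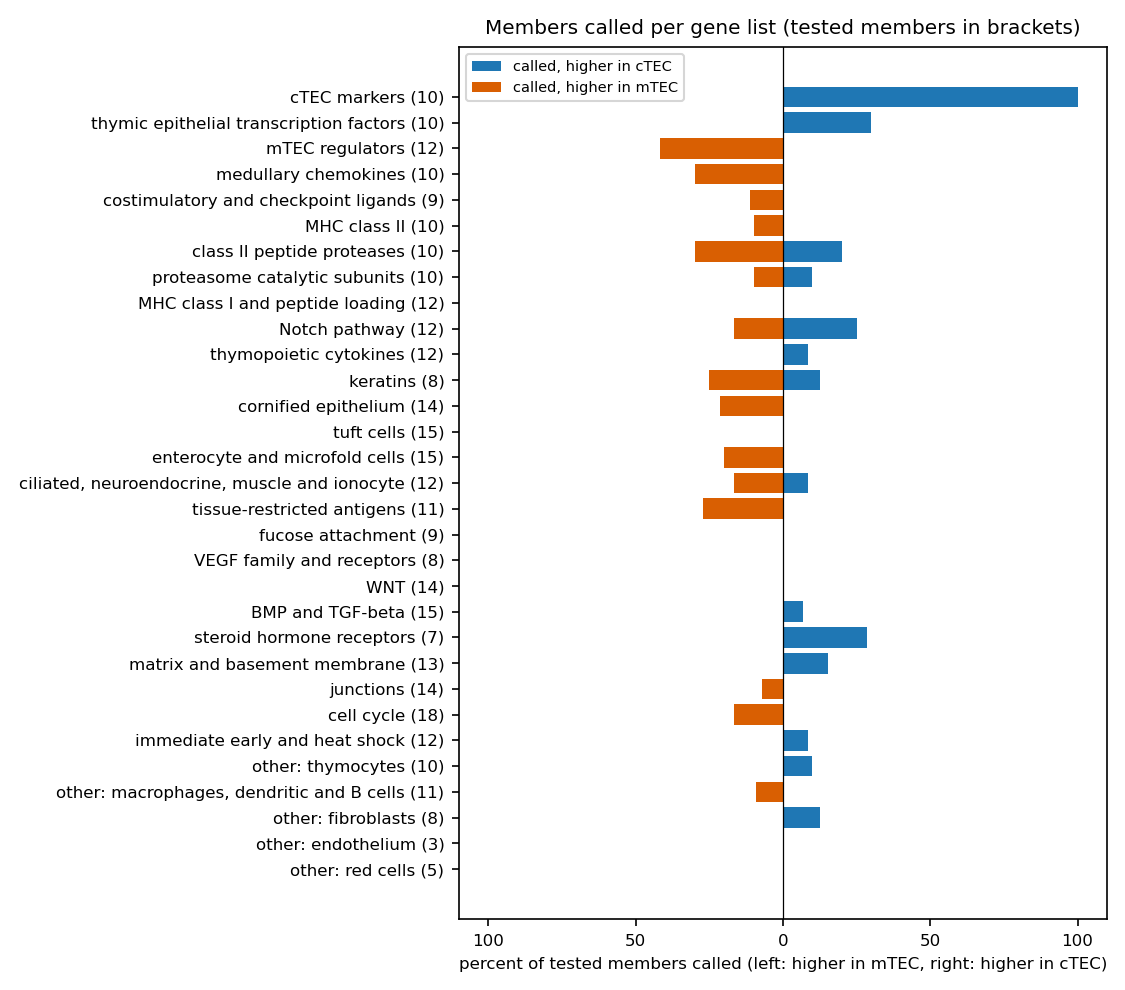
Percent of the tested members of each gene list that were called higher in cTECs (blue, to the right) or higher in mTECs (orange, to the left), with the number tested in brackets; over all tested genes the shares were 1.70% and 2.13%. The cTEC markers reach 100% on the right, the mTEC regulators and tissue-restricted antigens are on the left only, and lists without a bar had no call.

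Cell cycle genes stood lower in cTECs for all 18 listed, of which 3 were called, higher in mTECs (median -1.47; 5 without D20). Mki67, the Ki67 antigen of cycling cells, was at 10.5, 1.24, 5.17 and 4.75 FPKM in cTECs and 27.9, 23.2, 21.6 and 16.9 FPKM in mTECs, Top2a, the mitotic topoisomerase, at 18.6, 11.9, 6.71 and 5.45 against 57.5, 34.6, 53.1 and 28.8 and Cdk1 at 12.03, 1.78, 5.49 and 6.92 against 45.9, 51.5, 24.6 and 30.3. The groups did not overlap for any of the 3, and the differences were -2.32 ± 0.35, -2.12 ± 0.26 and -2.32 ± 0.47 (adjusted p = 0.000925, 0.000193 and 0.00713).

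Immediate early and heat shock genes had positive differences for 12 of 12 (median 0.74), and 1 was called over the 4 pairs and none without D20. This was Zfp36, which encodes the mRNA-decay factor tristetraprolin, at 1122, 437, 585 and 1326 FPKM in cTECs and 682, 275, 318 and 306 FPKM in mTECs, high in cTEC D16 and D28 and in mTEC D16 (1.13 ± 0.21, adjusted p = 0.00348; 0.0115 without D20). Dll1 and Cd274 were likewise highest in cTEC D16 and D28, and the part of this in their differences was not tested.

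The remaining lists had no call by limma-voom. None of 9 genes for fucose attachment was called (median -0.38); Fut1, a fucosyltransferase, was at 2.77, 0, 3.35 and 1.04 FPKM in cTECs and 26.1, 21.8, 12.3 and 21.3 in mTECs and passed only without D20 (adjusted p = 0.0424, 0.00563 without D20). None of 8 VEGF family genes was called (median -0.04, -0.26 without D20), Vegfa being higher in cTECs in all 4 pairs (0.95 ± 0.23, adjusted p = 0.0192). None of 14 WNT genes was called (median 0.24); Nkd1, an antagonist that WNT induces, was at 10.2, 14.3, 14.6 and 12.7 against 2.34, 1.18, 0.06 and 2.87 FPKM (3.38 ± 0.98, adjusted p = 0.0461).

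By size of difference among called genes with no overlap and a mean of at least 5 FPKM, the 12 furthest toward cTECs held 3 of the cTEC markers, Prss16, Cd83 and Psmb11. The furthest was 2310065F04Rik, a long intergenic RNA, at 3.96, 5.45, 2.47 and 9.56 FPKM in cTECs and 0.25, 0, 0 and 0 FPKM in mTECs (adjusted p = 0.00243, 0.019 without D20). Prss23, a serine protease, was at 41.1, 37.5, 28.5 and 83.98 against 1.61, 0.01, 0 and 1.33 FPKM. With so few mTEC counts, the fitted differences of these genes depend on the prior count. Scn1a, a neuronal sodium channel, was at 21.4, 13.7, 16.2 and 31.5 against 0.96, 0.51, 1.74 and 1.09 FPKM (4.68 ± 0.49, adjusted p = 5.62e-05), and Abat, the enzyme that breaks down GABA, at 59.4, 16.5, 24.7 and 29.6 against 2.46, 1.40, 1.86 and 3.49 FPKM (4.35 ± 0.39, adjusted p = 1.88e-05). Ackr4, a scavenging receptor for CCL19, CCL21 and CCL25, was at 146, 246, 235 and 177 against 10.96, 13.6, 9.83 and 20.8 FPKM, the reverse of the levels of Ccl21a described above (3.86 ± 0.27, adjusted p = 3.43e-06). Mtcl1, a microtubule crosslinker, Snhg11, a small nucleolar RNA host gene, Syngr1, a synaptic vesicle protein, and Klf15, a glucocorticoid-induced transcription factor, followed at 3.86 ± 0.59, 3.73 ± 0.37, 3.61 ± 0.37 and 3.60 ± 0.64. All 4 were called without D20 as well.

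The 12 furthest toward mTECs were at or near 0 in cTECs. Madcam1 was at 0, 0, 0.6 and 0 FPKM in cTECs and 15.5, 17.04, 13.00 and 13.5 FPKM in mTECs, and Lefty2, an inhibitor of Nodal, at 0, 0, 0.18 and 0 against 9.39, 10.98, 4.12 and 5.42. Gip, an incretin of the gut, I830127L07Rik and Cela3b, a pancreatic elastase, had no count in any cTEC library and were at least 387-, 218- and 172-fold higher in mTECs, with 29.9, 15.9, 21.1 and 1.38 FPKM for Gip. In mTECs these genes were thus low to moderate, and Gip was lowest at D28. Klk5, a kallikrein of skin, with 3 cTEC and 1442 mTEC counts, had a ratio of 411 (95% counting interval 141 to 1997). Cryaa, a lens crystallin, with 2 and 1281 counts, had a ratio of 548 (151 to 4532), and Ngp, a neutrophil granule protein, with 2 and 1183 counts, a ratio of 506 (139.8 to 4186). These intervals cover counting error only. Calca, the calcitonin gene, was at 1.07, 0, 0 and 0.46 against 67.4, 19.4, 15.4 and 19.1 FPKM, Cyp26a1, which degrades retinoic acid, at 0.53, 0, 0 and 0.13 against 17.7, 10.3, 11.6 and 13.1, and Gpr50, a receptor of the melatonin receptor family, at 0.19, 0, 0.09 and 0 against 7.37, 6.83, 7.48 and 3.83, and the last of the 12 was Crp. Adjusted p-values of the 12 were between 0.00129 and 0.00392. Without the D20 pair only Crp kept its call (adjusted p = 0.00666), the others lying between 0.0128 and 0.026.

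To compare the breadth of expression, all 8 libraries were thinned to the smallest total, 8867194 counts. At this depth 17723, 12576, 17828 and 17574 genes had at least 3 counts in cTECs and 20798, 16801, 15894 and 18514 in mTECs. The ranges overlapped, and the mean difference of 1577 genes did not pass (p = 0.457, two-sided exact permutation test, 4 against 4, smallest possible p 0.0286). With at least 10 counts, 14720, 12300, 14920 and 14667 genes were detected in cTECs and 17050, 16057, 15538 and 16019 in mTECs, 14152 ± 1239 against 16166 ± 635 (SD, n = 4). Here mTECs were higher in all 4 pairs and the groups did not overlap (p = 0.0286, exact permutation test, the smallest possible), and without D20 the difference was 1434 genes in the same direction (3 of 3 pairs, p = 0.1, the smallest that 3 against 3 allows).

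**Figure D4:**
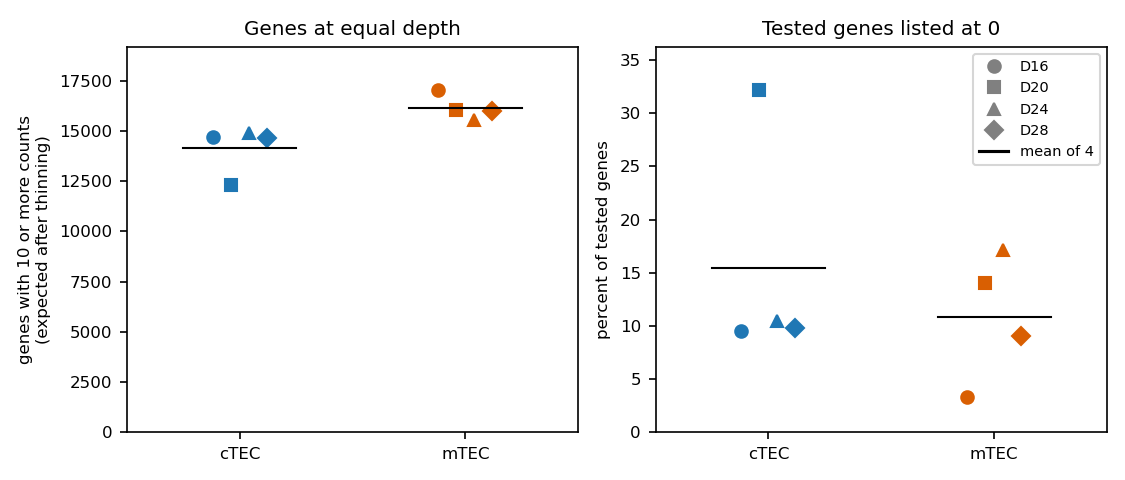
Left, genes expected to have at least 10 counts after thinning each library to 8867194 counts; right, percent of the 18993 tested genes listed at 0. Points are libraries, symbols give time points and lines are means of 4; the D20 cTEC library is lowest on the left (12300 genes) and highest on the right (32.2%).

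To ask whether the gap between cTECs and mTECs differed from other periods, the late gap was tested against the NPC gap and the early gap in 1 fit over the 56 libraries (19868 genes). Both tests use the same late libraries. Against NPC none was called by limma-voom (0%), with 1492 genes at an unadjusted p under 0.05 and a smallest adjusted p of 0.393, and no other tool was run on this comparison. The gaps (log2, cTEC minus mTEC) of NPC, early and late were 3.04, 2.77 and 4.16 for Psmb11, 3.44, 3.26 and 4.38 for Prss16 and -5.35, -4.98 and -4.19 for Aire. The late gap differed from the NPC gap by 1.12 ± 1.25 for Psmb11 and 1.16 ± 2.24 for Aire, so that shifts of more than 2-fold lay within the error of both. Fezf2 was at -2.19, -2.51 and -2.54 and Csn2 at -4.22, -4.21 and -4.20, close in value at the 3 periods. Without their errors these values do not show that the gaps were equal.

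Against early regeneration 3 genes were called (0.0151%; 2496 at an unadjusted p under 0.05), all with a larger cTEC share late. Pamr1, a secreted protease-like protein, was at 14.5, 44.7, 22.1 and 57.2 FPKM in late cTECs and 13.2, 6.28, 10.4 and 13.3 FPKM in late mTECs, and at 7.40 ± 3.07 FPKM in early cTECs and 7.74 ± 6.45 FPKM in early mTECs (SD, n = 18 each). Its gap went from -0.07 to 1.98, a difference of 2.05 ± 0.37 (adjusted p = 0.0052). Vsir, which encodes the checkpoint protein VISTA, was at 11.1, 14.1, 16.2 and 16.1 FPKM in late cTECs and 11.2, 10.4, 17.4 and 16.4 in late mTECs, overlapping throughout, and at 10.1 ± 5.66 FPKM in early cTECs and 15.1 ± 4.36 FPKM in early mTECs, with gaps of -0.75 and 0.63 (difference 1.38 ± 0.21, adjusted p = 0.00048). The late gap of Vsir was not itself called (0.46 ± 0.24, adjusted p = 0.257). Smok3b, a kinase known from sperm, chosen after its values were seen, rested on cTEC D20 at 3.38 FPKM, with 0 to 0.34 FPKM in the other late cTEC libraries and 0 in all late mTEC libraries. Without the D20 pair no gene was called against early regeneration, and 22 were without D16 and 17 without D28. The mTEC-higher genes Ccl19 and Cd80 had early and late gaps of -2.70 and -1.25, and of -3.94 and -1.90, and did not pass (adjusted p = 0.112 and 0.217).

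**Figure D5:**
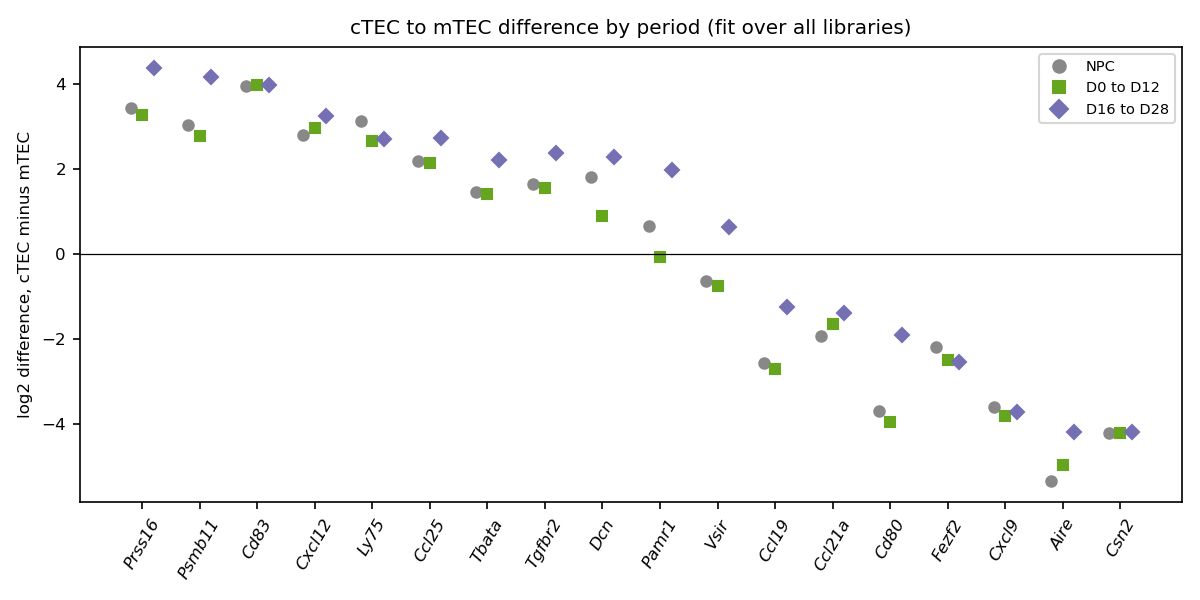
Log2 difference between cTECs and mTECs for 18 named genes in NPC (grey circles, 3 and 3 libraries), D0 to D12 (green squares, 18 and 18) and D16 to D28 (violet diamonds, 4 and 4), from the fit over 56 libraries; values above 0 are higher in cTECs. Of the genes shown, only Pamr1 and Vsir were called for late against early, and none for late against NPC.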

How the data were processed

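Polyadenylated RNA of sorted TECs was sequenced from 56 libraries, of which the 8 of D16 to D28 are reported. According to the study's methods and the submitters' processing notes, which also name bcl2fastq 2.20, reads were trimmed with Trimmomatic 0.35, aligned to GRCm38 with STAR 2.5.1b and quantified with RSEM 1.2.28. The authors deposited RSEM gene tables per sample, from which expected counts, which estimate the reads of each gene and were rounded here to whole numbers, and FPKM, scaled by RSEM to length and library, were used. The annotation that the authors used is not given in the sources used here. Of 50600 gene identifiers 50376 matched GENCODE M21, which gave names and positions. RSEM divides reads shared by similar genes, so values of near-identical copies are uncertain, and FPKM can differ from counts in direction where isoform use differs.

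Genes with a mean of at least 0.5 FPKM in either cell type were fitted with limma-voom (limma 3.58.1, R 4.3.3) on TMM-scaled counts with a term for each time point, and called at a 2-fold difference or more where p, adjusted by Benjamini-Hochberg over all tested genes, did not exceed 0.01. Gaps were compared in 1 fit over 56 libraries, with libraries of 1 time point and number treated as 1 mouse in a random block (correlation 0.077). Libraries were thinned to 8867194 counts for numbers of genes detected. Alternatives were edgeR 4.0.16 (quasi-likelihood), DESeq2 1.42.0, limma-trend on log2(FPKM + 0.5), sample quality weights, no time point term, other scalings and filters, and leaving out each pair. Scripts were tested on simulated data. FPKM carry depth only through the counts, whose totals ran from 8867222 to 46220373 in the late libraries.

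Genes were named if they were markers, members of the 32 lists, among the 12 called with the largest difference toward each cell type (mean of at least 5 FPKM, no overlap) or among the 8 called with the largest gap difference in each direction with at least 5 FPKM. Pth, Gcm2, Casr and Smok3b were added after their values were seen. The samples and lists were chosen with earlier results of these data known. Upstream windows came from RefSeq for GRCm38.p6 and were matched by symbol.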

Additional observations from a re-analysis of the deposited data

Results flagged for a closer look

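The D20 cTEC library lay far from the other 3 cTEC libraries in breadth: 12576 genes had at least 3 counts at equal depth, and 6116 tested genes were listed at 0. Groups of 4 libraries were tested over the genes named and these measures, 240 in all. Of these, 24 had a library set apart from its nearest neighbour by more than 0.829 of the range. This cutoff is meant to flag about 1 in 20 by chance, but not where most values are 0. For 2310065F04Rik, Ckm, Lor, Madcam1, Lefty2, Klk5, Cryaa and Ngp the other libraries of the group were at 0, so that any value above 0 was flagged. The 24 can therefore not be held against 1 in 20. Of these 24, 6 were in cTEC D16, 5 in cTEC D20, 4 in mTEC D16 and 5 in mTEC D28.

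High values set apart in cTEC D16 were 28.3 FPKM for Mtcl1, 22.0 FPKM for Ctss and 16.4 FPKM for Rag1, beside values near 0 for Lor (0.07 FPKM), Klk5 (0.29 FPKM) and Ngp (0.2 FPKM), whose other 3 cTEC libraries were at 0. In mTEC D16 the high values were 46.5 FPKM for Cd80, 67.4 FPKM for Calca, 682 FPKM for Zfp36 and 0.25 FPKM for 2310065F04Rik. In cTEC D20 Cd80 was high at 10.1 FPKM and Csn2 low at 6.88 FPKM, and Apoa1 was low at 0 FPKM. In cTEC D24 Madcam1 (0.6 FPKM) and Lefty2 (0.18 FPKM), and in cTEC D28 Ckm (0.54 FPKM) and Cryaa (0.04 FPKM), were the only cTEC values above 0. In mTEC D28 Pgr was high at 5.55 FPKM, while Ctsz (119.9 FPKM), I830127L07Rik (2.94 FPKM), Gpr50 (3.83 FPKM) and Trpm5 (7.43 FPKM) were low.

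The gap between cTECs and mTECs differed between late and early regeneration, by the interaction test of limma-voom over 56 libraries, for Vsir (1.38), Pamr1 (2.05) and Smok3b (5.46, log2). Without the D20 pair none of the 3 was called.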

How the results depend on the processing

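Of the 726 genes called, none changed sign under any of 13 alternatives fitted to the late libraries. The number moved to 463 with edgeR, 1821 with DESeq2, 304 with limma-trend, 2342 with sample quality weights, 434 with no filter on FPKM and 1439 at an adjusted p of at most 0.05, and the cause was not tested. The share of calls higher in cTECs, 44.4%, was 28.9% with limma-trend, 29.6% with DESeq2, 30.4% with quality weights and 36.5% to 52.7% with 1 pair left out; without D28 more genes were higher in cTECs (248) than in mTECs (223). Leaving out 1 pair gave 148 (D24) to 712 (D20), fits with fewer samples. Without the replicate block, that is the time point term, 547 genes were called, 489 of them shared with the 726. Same-time-point deviations of cTECs and mTECs correlated at 0.301, 0.057, 0.007 and -0.044 (D16, D20, D24 and D28). Between unlike time points they correlated at -0.251 (cTEC D20 with mTEC D16) to 0.27 (cTEC D28 with mTEC D16). The D16 value was thus close to that of an unmatched pair, and the data do not show pairing. With no TMM, DESeq2 size factors or a filter of 1 FPKM the number was 719 to 734. Against the early gap, 1 gene was called without the replicate block, 36 at an adjusted p of at most 0.05, and 0 to 22 with 1 pair left out; against NPC the count was 0 in all of these. The difference in genes detected, 1577 at 3 counts, was 1273 at 1 count (p = 0.571, exact permutation test), 2014 at 10 counts and 694 to 2747 with 1 pair left out. Of 117 named genes tested, 41 kept their direction and side of the threshold under every alternative. Differences that were not called turned for Foxn1 (-0.065 to 0.76 with 1 pair left out), Il7 (-0.11 to 0.18) and Casr (-0.60 to 1.41). With 4 pairs and 1 library per cell type in each, a difference that misses the threshold may still exist. Genes at 0 in cTEC D20 are the least certain.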
